A study of Mus musculus with 4 samples.

Results

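The long broad H3K36me3 regions that were called in 1 of 2 mouse strains were examined. They are the unique unrefined (broad) intervals of 5000 bp or more on autosomes that shared no base with any broad interval of the other strain. In C57BL/6J (B6), 393 of 16688 long autosomal regions met this rule (2.35%), out of 50542 autosomal regions of any length and 54458 in the whole B6 list. In the knock-in strain B6.Cg-Prdm9<tm1.1Kpgn>/Kpgn (KI), 440 of 17272 long autosomal regions met it (2.55%), out of 62557 autosomal regions and 66566 in the whole list. The absence of the other strain and the length chose these regions, so both are given only as descriptions.

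Spermatocytes at 14 days post-partum (dpp) were the source of the chromatin in both strains, and the labels give 15 dpp for the inputs. KI carries the B6 genome except for the exon of Prdm9 that encodes the zinc finger array, which comes from the Prdm9 Cst allele of CAST/EiJ. Chromatin was cut with MNase and precipitated with an antibody to H3K36me3, which the labels spell H3K36me6. In each strain, 2 biological replicates were merged before peak calling against 1 input, so each strain has 1 list, replicate error cannot be given, and no difference between the strains was tested. The lists hold positions without heights or scores, so the depth behind a region is unknown. The study aligned more reads for KI than for B6, and the part of this in any difference between the lists was not tested.

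Trimethylation of lysine 36 of histone H3 is deposited by SETD2, which travels with elongating RNA polymerase II, so that the bodies of transcribed genes carry long blocks of the mark. In early meiotic prophase, the zinc finger protein PRDM9 also places it, together with H3K4me3, on nucleosomes around the DNA sequences it binds, which become recombination hotspots. The peak caller ZINBA gave for every broad region 1 or more refined (narrow) peaks, the places of additional enrichment inside it.

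The sequences at the refined peaks of 3 of the longest regions of each strain are shown first, because few regions of these sets were so long. Each is 200 bp of mm9 around the middle of the refined peak, on the forward strand, with the bases inside the refined peak in capitals.
B6, Enpp6 intron, chr8:48089235-48089434: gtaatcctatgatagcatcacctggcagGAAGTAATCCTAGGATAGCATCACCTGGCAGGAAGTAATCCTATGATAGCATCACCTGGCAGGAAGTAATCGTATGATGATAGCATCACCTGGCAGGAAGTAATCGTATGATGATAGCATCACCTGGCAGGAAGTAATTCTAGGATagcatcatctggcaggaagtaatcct
B6, Gli3 intron, chr13:15581774-15581973: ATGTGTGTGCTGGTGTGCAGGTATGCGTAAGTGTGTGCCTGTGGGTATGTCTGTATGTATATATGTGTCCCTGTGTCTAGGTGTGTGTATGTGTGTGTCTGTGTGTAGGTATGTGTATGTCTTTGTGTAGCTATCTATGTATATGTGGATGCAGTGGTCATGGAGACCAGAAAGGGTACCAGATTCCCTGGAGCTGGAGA
B6, Adamts6 intron, chr13:105209875-105210074: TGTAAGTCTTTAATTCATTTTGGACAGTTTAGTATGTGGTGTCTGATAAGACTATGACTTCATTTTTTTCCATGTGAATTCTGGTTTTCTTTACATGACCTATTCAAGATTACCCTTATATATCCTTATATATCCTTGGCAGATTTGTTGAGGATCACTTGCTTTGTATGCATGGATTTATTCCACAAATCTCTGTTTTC
KI, outside genes, chr16:3659214-3659413: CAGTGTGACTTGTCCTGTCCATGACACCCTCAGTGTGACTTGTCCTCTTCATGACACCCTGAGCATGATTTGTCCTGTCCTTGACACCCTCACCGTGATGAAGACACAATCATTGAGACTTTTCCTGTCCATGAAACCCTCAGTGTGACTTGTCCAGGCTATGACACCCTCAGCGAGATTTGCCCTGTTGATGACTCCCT
KI, outside genes, chr8:69093437-69093636: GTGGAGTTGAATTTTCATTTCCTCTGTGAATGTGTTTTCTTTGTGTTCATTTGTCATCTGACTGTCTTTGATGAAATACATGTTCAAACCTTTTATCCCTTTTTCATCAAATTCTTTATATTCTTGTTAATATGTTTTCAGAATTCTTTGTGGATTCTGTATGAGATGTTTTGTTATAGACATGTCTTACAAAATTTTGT
KI, outside genes, chr6:131395340-131395539: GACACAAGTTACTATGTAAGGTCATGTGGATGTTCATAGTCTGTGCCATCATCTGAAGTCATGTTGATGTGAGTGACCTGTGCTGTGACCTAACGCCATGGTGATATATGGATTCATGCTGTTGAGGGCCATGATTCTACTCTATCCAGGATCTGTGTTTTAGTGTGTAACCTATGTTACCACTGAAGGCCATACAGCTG
The 3 B6 windows lie in introns, and the 3 KI windows lie outside protein-coding genes. The Enpp6 window is a tandem repeat. Moved by 192 bp, the 400 bp around its refined peak matched itself at 90.9% of bases. The KI window on chromosome 16 matched itself at 55.7% of bases when moved by 30 bp, and the Gli3 window at 49.5% when moved by 28 bp. In the remaining printed windows the best match was 36.5% in Adamts6 and, in KI, 35.4% on chromosome 8 and 37.9% on chromosome 6. The KI regions of 13500 and 10500 bp, not printed, matched at 49.3% and 50.1%. The median best match at a shift of 8 to 200 bp was 33.7% in the B6 set and 33.5% in the KI set. A match of 60% or more, which the chromosome 16 and Gli3 windows do not reach, was rare in both sets. It was found in 4 of 393 B6 regions (1.02%, Wilson 95% interval 0.396 to 2.59) and in 4 of 440 KI regions (0.909%, 0.354 to 2.31). Among shared regions of 5000 to 7000 bp, matches of 60% or more made up 0.979% in B6 and 0.997% in KI.

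A second set of sequences shows 10-bp words that differ between the strains. Windows of 100 bp are printed from 2 long B6 regions and 3 long KI regions in which the 400 bp at the middle of a refined peak held 1 of 20 words listed for that strain. In the 3 KI windows the word lies beside the refined peak and not inside it. The words were chosen on strain-only regions under 5000 bp, which hold none of the regions described here. Capitals mark the bases of listed words on either strand, and words may overlap.
B6, Fbxl17 intron, chr17:63615734-63615833: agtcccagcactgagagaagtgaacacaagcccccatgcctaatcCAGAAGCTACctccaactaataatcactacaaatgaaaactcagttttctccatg
B6, Utrn intron, chr10:12167152-12167251: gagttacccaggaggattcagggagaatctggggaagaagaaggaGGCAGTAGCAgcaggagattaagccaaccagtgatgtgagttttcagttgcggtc
KI, outside genes, chr1:195476335-195476434: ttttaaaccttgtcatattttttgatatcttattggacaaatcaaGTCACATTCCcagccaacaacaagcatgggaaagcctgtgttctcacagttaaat
KI, outside genes, chr17:94380642-94380741: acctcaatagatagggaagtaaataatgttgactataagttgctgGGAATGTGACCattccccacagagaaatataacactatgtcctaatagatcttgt
KI, Pole4 intron, chr6:82637128-82637227: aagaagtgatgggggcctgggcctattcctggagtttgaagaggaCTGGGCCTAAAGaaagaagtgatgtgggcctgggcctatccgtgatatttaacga
The KI window on chromosome 17 holds GAATGTGACC and GGAATGTGAC, which overlap, and the KI window on chromosome 1 holds GGAATGTGAC on the reverse strand. The B6 window in Fbxl17, which encodes an F-box protein, holds CAGAAGCTAC. The KI word in Pole4 stands in repeated sequence, as the 400 bp around that refined peak matched itself at 63.5% of bases when moved by 58 bp. How often such words occurred is given further on.

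The lengths of these regions lay close to the limit of the rule. The median B6 length was 5500 bp (quartiles 5000 and 6000, longest 18000 bp), and the 393 regions cover 2.32 Mb. The median KI length was 5000 bp (quartiles 5000 and 5500, longest 13500 bp), and the 440 regions cover 2.43 Mb. Just inside the limit, at 5000 bp, 162 of 1333 B6 regions (12.2%) and 229 of 1707 KI regions (13.4%) were strain-only. Just outside, at 4500 bp, 301 of 1635 B6 regions (18.4%) and 474 of 2296 KI regions (20.6%) were. The strain-only share was 7.44% in B6 and 7.21% in KI at 5000 to 7000 bp. At 10000 bp or more, 9 of 9508 B6 regions (0.0947%) and 4 of 8790 KI regions (0.0455%) were strain-only. Over all lengths the shares came to 37.3% and 30.3%. Long regions of the 2 strains thus nearly always overlapped by at least a base, and the regions described here are the exceptions at the short end. A longer region offers more room for a shared base, so the share tends to fall with length by the rule itself. This was not corrected for.

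**Figure D1:**
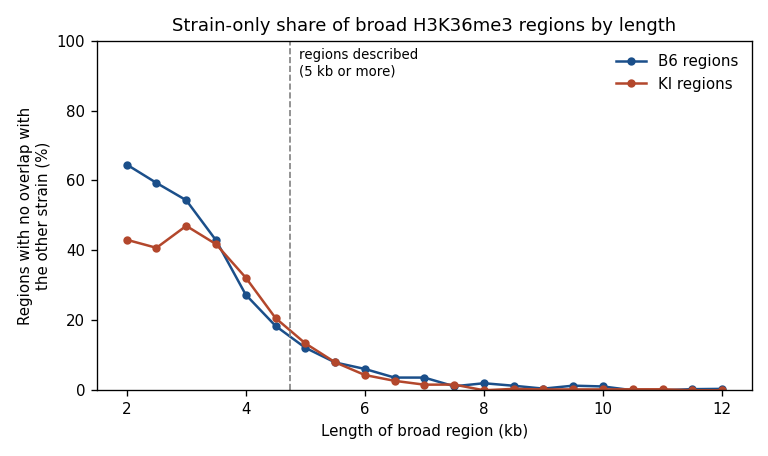
Share of autosomal broad regions of each length (kb, horizontal axis) that overlap no region of the other strain (percent, vertical axis) in B6 and KI, with points at each 500 bp step. The share is 64.6% in B6 and 43.0% in KI at 2000 bp, and 12.2% and 13.4% at 5000 bp.

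The gene content of the 2 sets was not alike. In B6, 335 of 393 regions overlapped a protein-coding gene (85.2%, Wilson 95% interval 81.4 to 88.4). In KI, 199 of 440 did (45.2%, 40.6 to 49.9). The intervals do not overlap, but they cover the number of regions and not the variation between animals. Protein-coding genes take up 38.4% of autosomal bases, 85.6% of the bases of the B6 regions and 42.3% of the bases of the KI regions. Shared regions of 5000 to 7000 bp overlapped a gene in 89.3% of B6 and 91.3% of KI regions. Strain-only regions under 5000 bp did so in 62.4% of B6 and 41.6% of KI regions. The long KI-only regions were therefore near the short KI-only regions in this share, whereas the long B6-only regions lay between the short B6-only and the shared ones. The difference between the strains was also present at 4000 to 4500 bp, with 68.6% in B6 and 39.9% in KI. In B6, 9 of 9 regions of 10000 bp or more overlapped a gene, and in KI 0 of 4 did.

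Exons were touched less often than in the shared regions of like length and more often than in shorter strain-only regions. A gene but no exon of it was overlapped by 171 of 393 B6 regions (43.5%, Wilson 95% interval 38.7 to 48.5) and by 110 of 440 KI regions (25%, 21.2 to 29.3). An exon of a protein-coding gene was touched by 164 of 393 B6 regions (41.7%, 37 to 46.7) and by 89 of 440 KI regions (20.2%, 16.7 to 24.2). The shares were 52.2% and 50.5% in shared regions of 5000 to 7000 bp. They were 29.7% in B6 and 14.4% in KI for strain-only regions of 4000 to 4500 bp, and 18.8% and 12.6% for all strain-only regions under 5000 bp. A longer region offers more room to touch an exon, and this was not corrected for. Exons made up 5.30% of the bases of the B6 regions and 2.39% of those of the KI regions. The base shares were 9.37% and 9.30% in the shared regions of like length, and 3.48% and 2.17% in strain-only regions under 5000 bp. By bases, the long and short KI-only regions were thus close. Regions that lay wholly inside genes numbered 320 in B6 (81.4%) and 176 in KI (40.0%).

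**Figure D2:**
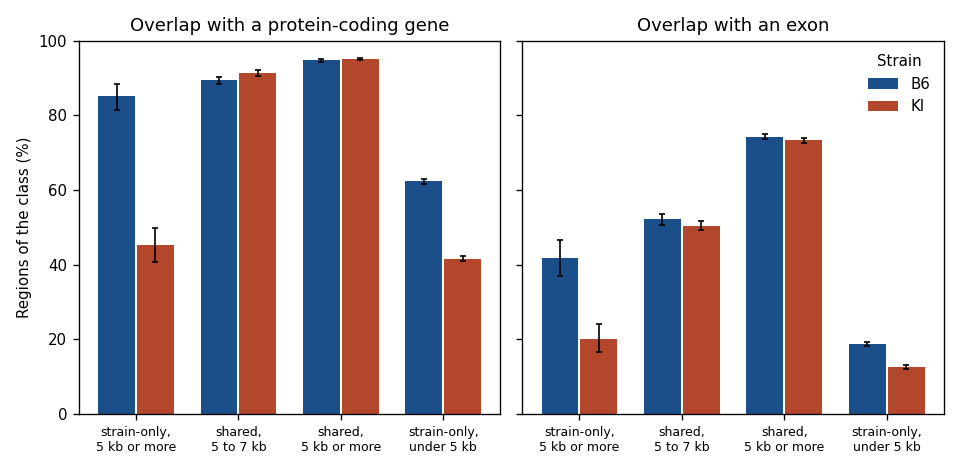
Bars show the share of regions (percent) that overlap a protein-coding gene (left) or an exon (right) in 4 classes of B6 and KI regions, and error bars are Wilson 95% intervals over regions. Strain-only regions of 5000 bp or more overlap a gene in 85.2% of B6 and 45.2% of KI cases, while the shared classes lie between 89.3% and 95.1% in both strains.

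Few of the regions were at gene starts. Their midpoint lay within 5 kb of the start of a protein-coding gene in 12 of 393 B6 regions (3.05%, 1.76 to 5.26) and 24 of 440 KI regions (5.45%, 3.69 to 7.99), against 19% and 18.6% of shared regions of 5000 to 7000 bp. Short strain-only regions lay this close in 6.66% of cases in B6 and 7.73% in KI. Along the gene, cut into 3 equal parts in the direction of transcription, 27.8% of the B6 regions in genes had their midpoint in part 1, 31.0% in part 2 and 41.2% in part 3. For KI the shares were 33.7%, 27.1% and 39.2%. The shared regions of 5000 to 7000 bp had 39.7% in part 3 in B6 and 37.2% in KI, which lie inside the intervals of the strain-only sets (36.1 to 46.5 in B6 and 32.7 to 46.1 in KI).

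The genes that held these regions were long. Counted per region, with the longest overlapping gene as host, the median host length was 194 kb in B6 and 197 kb in KI. It was 108 kb and 103 kb for shared regions of 5000 to 7000 bp. Short strain-only regions had host genes of 176 kb in B6 and 164 kb in KI. Counted once per gene, the medians were 174 kb for the 279 B6 genes and 176 kb for the 192 KI genes. Over all 21418 autosomal protein-coding genes the median was 15.5 kb. A longer gene offers more room to a region, and this was not corrected for. Outside genes, the median distance to the nearest protein-coding gene was 39.7 kb for 58 B6 regions and 73.1 kb for 241 KI regions. More than 50 kb separated 26 of the 58 B6 regions (44.8%, 32.7 to 57.5) and 138 of the 241 KI regions (57.3%, 50.9 to 63.3) from any such gene.

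Although no base was shared with the other strain, most B6 regions were near one of its regions. The median distance from a B6 region to the nearest KI region was 3000 bp (quartiles 1000 and 10500), and 48 of 393 adjoined a KI region with no base between. The median distance from a KI region to the nearest B6 region was 27250 bp (quartiles 7000 and 73000), and 10 of 440 adjoined one. A region of the other strain lay within 5000 bp of 61.6% of the B6 regions (56.7 to 66.3) and 22.3% of the KI regions (18.6 to 26.4). The distance exceeded 50 kb for 24 B6 regions (6.11%) and 160 KI regions (36.4%). Strain-only regions under 5000 bp had medians of 8000 bp in B6 and 23000 bp in KI, and those of 4000 to 4500 bp had 5500 and 33250 bp. The larger KI distance was thus not particular to the long regions. In genes, the medians were 3000 bp in B6 and 12500 bp in KI. Outside genes, they were 12750 bp and 48500 bp, so the KI distances were larger in either setting.

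**Figure D3:**
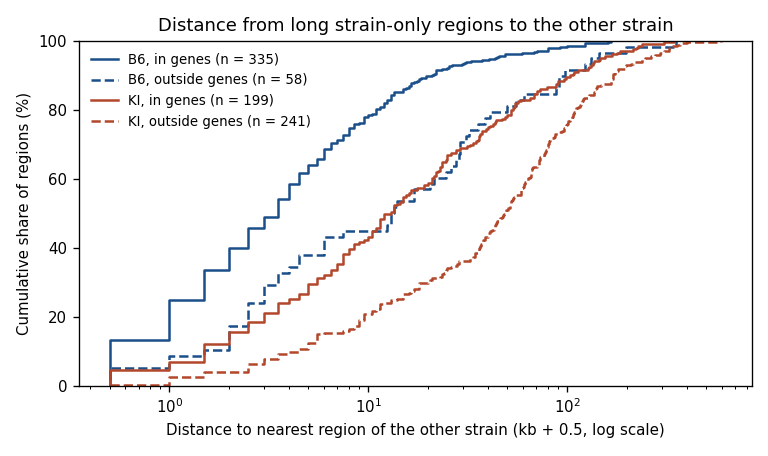
Cumulative share of long strain-only regions (percent) against the distance to the nearest region of the other strain (kb, with 0.5 kb added, log scale), for B6 and KI in and outside protein-coding genes. The curve of the 335 B6 regions in genes lies to the left, with a median of 3000 bp, and that of the 241 KI regions outside genes to the right, with a median of 48500 bp.

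Many B6 regions continued into further regions of their own strain. A neighbour of the same strain was touched or overlapped by 196 of 393 B6 regions (49.9%, 45 to 54.8) and 54 of 440 KI regions (12.3%, 9.53 to 15.7). The caller let neighbouring intervals overlap by 500 bp, which was the case for 145 B6 and 41 KI regions. When intervals of a strain were joined, 122 of the 393 B6 regions (31.0%) but 13 of the 440 KI regions (2.95%) became part of a stretch that did overlap the other strain. Their count as strain-only thus rests on where the caller cut the stretch. The 197 B6 regions that adjoined no other B6 region overlapped a gene in 76.6% of cases (70.3 to 82.0). The 386 such KI regions did so in 42.5% (37.7 to 47.5).

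Nearly every region held a single refined peak. In B6, 362 regions held 1, 21 held 2 and 10 held 3, and in KI 427 held 1 and 13 held 2. The share with more than 1 was 7.89% (5.61 to 11) in B6 and 2.95% (1.73 to 4.99) in KI, against 10.1% and 12.5% in shared regions of 5000 to 7000 bp. The widest refined peak of a region was 298 bp wide at the median in B6 (quartiles 253 and 458) and 268 bp in KI (quartiles 245 and 305). The shared medians were 332 bp and 338 bp. Of the 10 B6 regions with 3 refined peaks, 9 lay in genes. The 5 that come first by length lay in Osbpl1a, Mme, which encodes the peptidase neprilysin, Etl4, Slc43a1, an amino acid transporter gene, and Insr, the insulin receptor gene. Of the 13 KI regions with 2, 7 lay in genes, among them Baz2b and Vav3.

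The refined peak was nearer the centre of the region in the KI set. Among regions with 1 refined peak, the peak lay a median of 471 bp from the centre in KI (quartiles 220 and 866) and 879 bp in B6 (quartiles 418 and 1335). The peak fell in the central 25% of the region in 280 of 427 KI regions (65.6%, 60.9 to 69.9) and in 145 of 362 B6 regions (40.1%, 35.1 to 45.2). Shared regions of 5000 to 7000 bp had 41.5% in KI (40.1 to 42.9) and 42.6% in B6 (41.0 to 44.1). Strain-only regions of 4000 to 4500 bp had 83.1% in KI (81.2 to 84.9) and 58.9% in B6 (55.6 to 62.2). A central peak, and its larger share in KI, were thus not particular to the long regions. The KI share was 63.0% in genes (56.0 to 69.5) and 67.7% outside (61.4 to 73.3). The B6 share was 36% in genes (30.9 to 41.5) and 63.0% outside (49.6 to 74.6). The peaks of KI regions in either setting, and of the 54 B6 regions outside genes, were thus nearer the centre than those of B6 regions in genes. At the same length of 5000 bp, the central share was 73.3% in KI (67.1 to 78.7) and 42% in B6 (34.4 to 50).

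**Figure D4:**
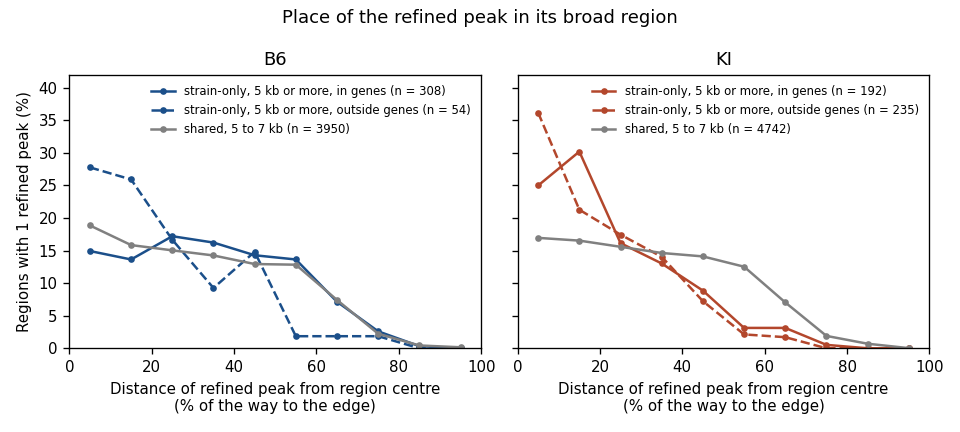
Share of regions with 1 refined peak (percent) by the distance of that peak from the region's centre, as a percent of the way to its edge, in steps of 10%. KI lines for strain-only regions in and outside genes and the B6 line outside genes are high near the centre, while the B6 line in genes follows the grey line of shared regions of 5000 to 7000 bp.

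Base composition set the 2 groups apart less. The median GC content was 42.1% in the B6 regions and 43.0% in the KI regions, against 41.9% for all autosomes. Regions in genes had 42.4% in B6 against 44.7% in KI, and those outside genes had 40.8% against 41.7%. The shared regions of 5000 to 7000 bp had 44.0% in B6 and 43.4% in KI. CpG dinucleotides numbered a median of 8.55 per kb in B6 regions and 7.40 per kb in KI regions. In genes the medians were 8.95 in B6 and 9 in KI, and outside genes 6.09 and 6.36. The lower KI value over all regions was thus not seen within either setting.

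The listed 10-bp words were unevenly divided between the sets. A word of the B6 list was present within 400 bp at the middle of a refined peak in 28 of 393 B6 regions (7.12%, 4.98 to 10.1) and in 4 of 440 KI regions (0.909%, 0.354 to 2.31). A word of the KI list was present in 30 of 440 KI regions (6.82%, 4.82 to 9.57) and in 5 of 393 B6 regions (1.27%, 0.545 to 2.94). In windows of the same size 2 kb downstream, the own list was found in 1.53% of B6 regions and 1.82% of KI regions. Shared regions of 5000 to 7000 bp held it in 2.32% of B6 and 2.18% of KI cases, and in short strain-only regions, on which the words were chosen, 5.57% and 5.09%. The B6 share was 17.2% (9.64 to 28.9) in the 58 regions outside genes and 5.37% (3.43 to 8.33) in the 335 in genes. The KI shares were 7.88% (5.11 to 12) outside and 5.53% (3.11 to 9.63) in genes. Thus the own list marked a small share of each set, and 365 B6 and 410 KI regions held none of their strain's words in this window.

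Among single words, GGAATGTGAC was the most frequent in the long KI regions, in 17 of 440 (3.86%) and in 0 of 393 B6 regions. In the short strain-only regions it stood in 1.26% of the 400-bp windows of KI and 0.0775% of those of B6. GAATGTGACC, which overlaps it by 9 bp, stood in 11 KI regions (2.50%) and 0 B6 regions. CTGGGCCTAA stood in 9 KI regions and 0 B6 regions. No B6 word was in more than 3 of the long B6 regions, where GAAGCTACTA, the first of the B6 list, stood in 3 B6 and 2 KI regions. A word is a match of letters and was not tested as a binding site.

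The regions touched 279 of 21418 autosomal protein-coding genes in B6 (1.3%) and 192 in KI (0.896%), 14 of them in both. Of the B6 genes, 49 held 2 or more of the regions and 10 held 3 or more. Of the KI genes, 11 held 2 or more and 1 held 3. Genes of 100 kb or more numbered 196 of 279 in B6 and 125 of 192 in KI, against 2281 of all 21418. The 14 genes with both kinds included Cntnap2, Pde4d, Ptprt, Rora, Unc5d and Prickle2. Of the 440 KI regions, 4 were within 50 kb of a region of the B6 set, and the median distance to the nearest one was 2.44 Mb. Distances for regions placed at random were not computed, so these values do not show that the sets avoid each other.

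The genes of the B6 set were widely covered in B6 and less so in KI. The median share of a gene's length in broad regions of any length was 47.7% in B6 and 21.5% in KI for the 279 B6 genes, against medians of 21.5% and 19% over all autosomal protein-coding genes. The B6 share was the larger in 263 of 279, against 46.2% of the 14168 autosomal genes with a base in regions of either strain, but the regions that chose these genes are part of that share. In contrast, the genes of the KI set were little covered in either strain, with a median share of 9.84% in KI and 4.77% in B6. The KI share was the larger in 139 of 192, against 26.6% of those 14168 genes, with the same limit. Of the regions in genes, 319 of 335 in B6 (95.2%, 92.4 to 97.0) had a host gene with at least 1 bp in a region of the other strain, as did 160 of 199 in KI (80.4%, 74.3 to 85.3). The other strain covered 50% or more of the host gene for 66 B6 regions (19.7%) and 11 KI regions (5.53%). Genes with no base in the other strain numbered 15 in B6 and 40 in KI. The matching shares for other genes were not set beside these counts. A longer gene offers more room for a base of the other strain, and this was not corrected for.

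**Figure D5:**
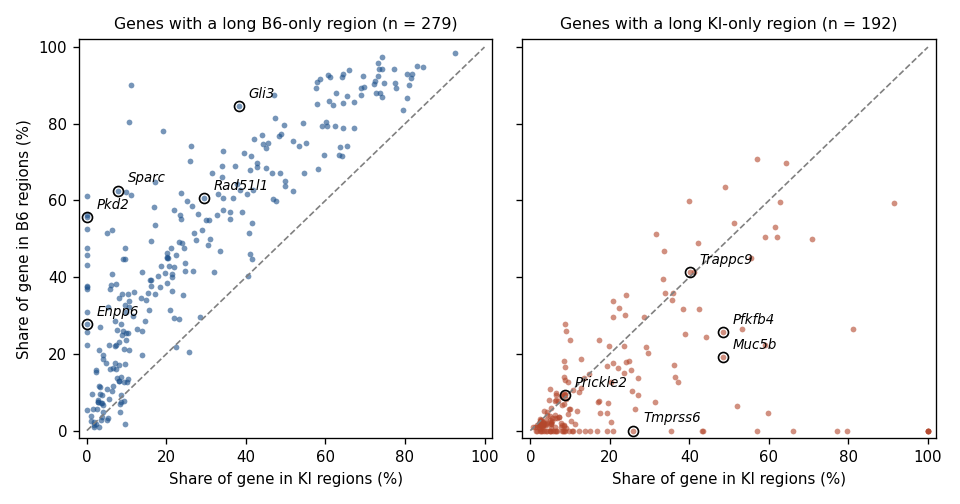
Each point is a protein-coding gene with a long B6-only region (left, 279 genes) or a long KI-only region (right, 192 genes), with the share of its length in KI regions (percent, horizontal) against that in B6 regions (percent, vertical) and a dashed line of equality. The B6 genes spread up to high shares and lie above the line in 263 cases, while most KI genes sit near the lower left corner, with a median of 9.84% in KI.

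Rad51l1, a gene of homologous recombination repair, held the most long B6-only regions. Its 7 regions of 5000 to 7000 bp covered 39500 bp of a gene of 505920 bp (chr12:80398338-80904257), of which 60.7% was in B6 and 29.4% in KI regions. The nearest KI region lay 0 to 10500 bp from each of the 7. Gli3, a transcription factor gene of the Hedgehog pathway on chromosome 13, held 3 regions with 24500 bp, of which the longest had 13000 bp and lay 2000 bp from a KI region. Gli3 was 84.7% in B6 and 38.2% in KI regions. Zfp385b and Lrrc16a held 4 regions each, with B6 and KI shares of 87.5% and 47.1% for Zfp385b, and 40.9% and 6.33% for Lrrc16a. These were genes in which the mark was called in both strains and its blocks were longer or more numerous in B6. Most B6 genes named here and below were chosen by their B6-only regions, which are part of their B6 shares.

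A smaller number of B6 genes were without KI regions. Pkd2, which encodes the cation channel polycystin-2, held 3 regions in a stretch of 24000 bp (chr5:104908001-104932000) that reached from near the middle to near the end of the gene. Its share was 55.7% in B6 and 0 in KI regions, and the nearest KI region was 6500 to 21500 bp away. The longest region of all, with 18000 bp (chr8:48082001-48100000), lay in an intron of Enpp6, a phosphodiesterase gene, which was 27.8% in B6 and 0 in KI regions. The nearest KI region was 79500 bp away. This is the region whose refined peak is the tandem repeat shown above. Atf3, a stress-response transcription factor gene, was 56.2% in B6 and 0 in KI regions. Impdh1, a gene of guanine nucleotide synthesis, was 37.7% and 0, Ikbip 43.2% and 0, and Slc43a3 52.4% and 0.

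Some B6 genes encode secreted or matrix proteins, and others of this kind were in the KI set. Sparc, a gene of a matrix glycoprotein, held a region of 10000 bp (chr11:55214001-55224000) that took up 39.1% of the gene and lay 500 bp from a KI region, with 62.5% of the gene in B6 and 7.82% in KI regions. Adamts6 and Adamts19, genes of secreted metalloproteases, held regions with up to 13000 bp, and Adamts19 was 34.6% in B6 and 8.07% in KI regions. Both fibrillin genes, Fbn1 and Fbn2, held a long B6-only region. Adamts genes were 2 of 24 in B6 and 0 in KI. Collagen genes were 0 of 42 in B6 and 2 in KI, Col4a2 and Col23a1. Over all autosomal protein-coding genes, 1.3% held a long B6-only region and 0.896% a KI-only one, so a count of 0 in so small a family says little. These families were picked by name after the values were seen, gene length was not corrected for, and no test was made. Among the remaining long regions, that of Abca6, a transporter gene, had 12000 bp, that of Daam2 11500 bp, those of Mccc2 and Fbxl17 10000 bp, and that of Lass6, a ceramide synthase gene, was 1 of 5 with 9500 bp. The region of Fbxl17 and the longest of Adamts6 adjoined a KI region. By share of the gene's length, Tm4sf19 led with 57.1% in its B6-only region, followed by Zfp429 with 47.9%. Kdelc2 had 28.0% and Isoc2a 25.8%. In Scfd2 and Fmnl2, 3 regions each covered 19000 and 18000 bp.

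The KI regions in genes were spread thinly. Prickle2, a gene of planar cell polarity, held the most, with 3 regions of 18000 bp in all in a gene of 335254 bp (chr6:92320886-92656139), and also 1 B6-only region of 5000 bp. It was 8.65% in KI and 9.25% in B6 regions. Camta1, Enox1, Fstl4, Thsd7b, Trappc9, Itpr2 and Kcnh5 held 2 regions each. Among these, the KI share of the gene ran from 2.91% in Thsd7b to 40.1% in Trappc9, whose B6 share was 41.2%. In Camta1 and Enox1 the shares were 20.8% and 17.2% in KI, and 17.7% and 23.5% in B6. Kcnh5 was 4.998% in KI and 0 in B6 regions. A long KI-only region was thus often 1 of few regions in a long gene that neither strain marked widely.

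Some shorter genes were an exception. Pfkfb4, a glycolysis regulator gene, held 2 adjoining regions with 11500 bp in its first part (chr9:108894001-108905500), and was 48.4% in KI and 25.7% in B6 regions. Pdcl2, a phosducin-like gene, was 59.7% in KI and 4.52% in B6 regions. The clone-named gene 4933440M02Rik was 57.1% and 0, and 4931409K22Rik 35.3% and 0. Gsto2, a glutathione transferase gene, was 52.0% and 6.32%, and Hcn2, a pacemaker channel gene, 59.1% and 22.4%. Muc5b, a mucin gene, was 48.5% and 19.1%, and Slc9a3r1 36.4% and 14.0%. Tmprss6, a gene of iron control in liver, was 25.9% and 0. The genes of this paragraph were named for the share of their length in KI-only regions. Those regions are part of the KI share, so the choice itself favoured a larger share in KI.

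Ion channel genes were present in both sets. Over all autosomal protein-coding genes, 0.896% held a long KI-only region and 1.3% a B6-only one. Potassium channel and channel-interacting genes (Kcn) numbered 6 of 93, among them Kcnip4, Kcnh5 and Kcnma1, and 0 in B6. Glutamate receptor genes numbered 5 of 23, namely Grik3, Grm3, Grm8, Grm5 and Gria1, and 0 in B6. Voltage-gated calcium channel subunit genes (Cacn) numbered 3 of 25 in B6, namely Cacna1b, Cacnb2 and Cacna2d1, and 1 in KI, Cacna1e. Itpr1 and Pkd2, also genes of calcium-permeable channels, were in the B6 set. These families were also picked after the values were seen, many of their genes are long, and no test was made. Of the 8 KI regions longer than 7500 bp, 1 lay in a gene, Pbx4, with 9000 bp. A further 11 had 7500 bp, of which 6 lay in genes, among them Klhl29. The longest, with 13500 bp (chr18:9482501-9496000), lay outside genes near a further one of 10500 bp (chr18:9500501-9511000), and the nearest B6 regions were 34000 and 52000 bp away. The KI region of 11000 bp on chromosome 16 and those of 10000 and 9500 bp on chromosomes 8 and 6, whose sequences are shown above, were 79500, 45500 and 53000 bp from a B6 region.

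Listed genes of the germ cell programme held few regions of either set, and at the shares over all genes, 1.3% in B6 and 0.896% in KI, lists of this size would give fewer than 1 gene each. Of 29 genes of meiotic recombination and synapsis found in the annotation, 0 held a long strain-only region of either strain, and their median share in broad regions was 97.0% in both strains. Of 15 genes of H3K36 methyltransferases and demethylases, 0 held one, with medians of 96.4% in B6 and 94.0% in KI. Of 23 genes of germ cell identity and the piRNA pathway, 1 held B6-only regions and 0 held KI-only ones. It was Zbtb16, the gene of the spermatogonial factor PLZF, with regions of 6000 and 5500 bp and shares of 69.1% in B6 and 37.2% in KI. Of 17 spermatid genes, 0 held one. Their share was 0 for 11 in B6 and for 8 in KI, and it was larger in B6 for 5 and in KI for 3. Vmn2r19, a vomeronasal receptor gene with a region of 5500 bp, was the 1 gene with a long KI-only region among 1426 named chemoreceptor genes (Olfr, Vmn1r and Vmn2r), of which 0 held a B6-only one, against the same 0.896% and 1.3% of all genes.

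Markers of cell types in the testis were read as the share of each gene in broad regions. The 12 germ cell markers were 85.2% to 100% covered in B6 and 77.4% to 100% in KI. The 16 markers of other testis cells had a median of 4.22% in B6 (0 to 100) and 3.15% in KI (0 to 100), with the larger share in B6 for 6, in KI for 5, and 0 in B6 for 5 and in KI for 5. Among the Sertoli cell markers, Sox9 was 45.2% in B6 and 0 in KI regions, Wt1 71.7% and 8.49%, Amh 42% and 0.333%, Gata4 19.6% and 8.25%, and Cldn11 5.19% and 0. Fshr, the receptor gene for follicle-stimulating hormone, had 3.24% in B6 and the larger share, 4.50%, in KI. The Leydig cell marker Star was 100% in both strains, while Cyp17a1 and Insl3 were 0 in both, as was Acta2 of peritubular cells. Dhh and Inha, on a wider list of 25 somatic testis markers, were also 0 in both. Of these 25, 2 held a long B6-only region and 0 a KI-only one, where the shares over all genes (1.3% and 0.896%) would give fewer than 1 of either. These were Nr5a1, a gene of steroid-producing and Sertoli cells, with 38% in B6 and 6.05% in KI regions, and Tek, an endothelial receptor gene, with 12.7% and 10.1%. The part of such cells in the B6 set was not tested, and in lists from mixed chromatin more cells of a type and more of the mark per cell cannot be told apart.

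Across autosomes, the strain-only share of long regions ran from 0.814% on chromosome 7 to 4.17% on chromosome 12 in B6, and from 1.77% on chromosome 7 to 4.12% on chromosome 1 in KI. Regions of a set lay within 20 kb of each other in 28 groups with 58 regions in B6, the largest with 3 in Pkd2 and 3 in Kat2b, and in 9 groups of 2 in KI. On chromosome X, which was left out above, 9 of 868 long B6 regions and 10 of 812 long KI regions were strain-only.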

How the data were processed

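Spermatocyte chromatin of 2 mouse strains was subjected to H3K36me3 ChIP-seq. The authors aligned reads with BWA 1.2.3 (per the labels) to mm9, discarded reads without a unique position, merged the replicates and called broad and refined peaks with ZINBA against the input. The deposited lists hold the start and end of each peak in bp, with no count, height or score. The discarding of reads can lower the signal at repeated sequence, and the caller can divide a long block into several intervals.

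Repeated rows were used once. Overlaps were computed in Python 3.11.15 with numpy 2.4.6 and pandas 2.3.3, and Wilson 95% intervals with scipy 1.17.1. They cover counting of regions only. Genes came from the GENCODE annotation of NCBI m37, the build of mm9, and sequence from the same assembly. The overlap, distance and word counts were tested on simulated data. Words of 10 bp were ranked on 400-bp windows of strain-only regions under 5000 bp, with simple repeats left out. Printed sequences are the longest regions outside chromosome 18, without untranslated exons.

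The regions, gene lists and measures were chosen with earlier results of these data known. Genes named are those with the most bases or the largest share in the regions (10 each per strain, the latter of at least 5000 bp), the hosts of the 10 longest regions and of the 5 with the most refined peaks (ties by length, then position), list genes with a region, and a few others that the text names for comparison. A planned share of masked repeats was not computed because the sequence used here is not masked. A few regions and genes that this rule selects are not reported here. The alternatives tried are given at the end.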

Additional observations from a re-analysis of the deposited data

How the results depend on the processing

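Of 76 values recomputed under 1 changed choice each, 47 stayed within 1.5 times the count, within the 95% interval of the share or within that of the median, and 29 did not. With a minimum length of 4000 bp there were 1300 B6 and 2012 KI regions, with median lengths of 4500 and 4000 bp. In B6, 73.6% of them overlapped a protein-coding gene and 74.2% of their bases lay in one. With a minimum of 10000 bp there were 9 B6 and 4 KI regions, with medians of 11500 and 10750 bp. All 9 B6 regions lay in genes, with 100% of regions and bases, and 0 of the KI regions and bases did. When a region of the other strain within 5000 bp counted as shared, 157 B6 regions were left, with 77.1% of regions and 76.7% of bases in genes, and the KI shares were 39.9% of regions and 36.7% of bases. Joining the intervals of a strain first gave 683 B6 and 661 KI regions, with 84.6% and 46.0% of them in genes. A chromosome X added to the autosomes, overlaps of up to 10% of a region's length allowed, a distance limit of 1000 bp, genes of any type and the shortest gene as host left every value computed for them within these limits.

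The share of regions in a gene also marked in the other strain was 19.7% in B6 and 5.53% in KI when 50% of the gene was required. A window of 1000 bp gave a listed 10-bp word in 10.7% of B6 and 10% of KI regions. The median GC content of 400 bp at the refined peak was 41.8% in B6 and 44.0% in KI. Leaving out regions that adjoin another region of their strain, a choice made after the data were seen, left 197 B6 regions, with 76.6% in genes. The gene share was the larger in B6 under every one of these alternatives. No paired analysis was possible because the replicates of each strain were merged before peak calling, and no replicate could be left out. The lists hold no score, so a stricter threshold than that of the authors was not run.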
